A study of Ambystoma mexicanum with 6 samples.

Results

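Integrins a4, a6 and b1 and the proteoglycan versican, a group of midkine-binding surface and matrix proteins, were followed in regenerating axolotl limbs. The members were all transcripts of 5 assembled genes that the study named as midkine receptors or, for versican, as a binding partner of midkine, taken by identifier and not by their values. They were integrin a4 (c1075823_g2), integrin a6 (c1082824_g3), integrin b1 (c1088780_g4) and versican, which has 2 assembled genes (c1078639_g1 and c1079812_g15). These 5 assembled genes, of 1388798 in the matrix, held 16 of its 1554055 transcripts. An assembled gene is a group of transcripts that a transcriptome assembly placed together, and its sum is the total over them. The blastx entry names that the study gives to members are ITA6_CHICK for c1082824_g3_i1 and CSPG2_CHICK, the versican core protein, for c1079812_g15_i2.

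RNA came from regenerating limbs of Ambystoma mexicanum at 11 days post-amputation (dpa), 3 treated with iMDK, a small molecule inhibitor of midkine, and 3 with its solvent DMSO. By the labels, treatment ran from amputation to collection. According to the methods of the study, juvenile white animals were immersed in the solution and samples were biological triplicates, so the tests weigh differences against the spread of limbs. Limbs of both groups were amputated and no genetic change is named. Values are TPM, the share of a library held by a transcript after correction for transcript length, scaled between libraries by the trimmed mean of M-values (TMM).

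Integrins are pairs of an alpha and a beta subunit that hold cells to the matrix and carry signals inward. The a6 subunit with b1 binds laminin of basement membranes, and with b4 it anchors basal epidermal cells, whereas a4 with b1 binds fibronectin and the vascular adhesion molecule VCAM1. Versican is a large chondroitin sulfate proteoglycan that binds hyaluronan in the provisional matrix of growing tissue. In mammals, midkine, a heparin-binding growth factor, binds chondroitin sulfate chains and engages a4b1 and a6b1.

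The 6 libraries had 126965 to 198094 transcripts above 0. TPM values keep no read totals, so depth is unknown. The limbs held the tissues their label names, since keratins and collagens were high: epidermal markers summed to 12308 to 14214 TPM in iMDK and 8683 to 13191 TPM in DMSO, and connective tissue markers to 911 to 981 TPM in iMDK and 382 to 1224 TPM in DMSO. In such bulk samples fewer cells of a type and less RNA per cell cannot be told apart. DMSO 1 had the lowest and DMSO 2 the highest connective tissue sum.

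Integrin b1, the shared beta chain of many integrins, was the most abundant member and differed least between treatments. Its sum was 137.1, 126.2 and 121.2 TPM in iMDK 1 to 3 and 139.97, 127.4 and 102.9 TPM in DMSO 1 to 3. The ranges overlapped, with the highest and the lowest library both in DMSO. The means were 128 ± 8.12 TPM in iMDK and 123 ± 18.9 TPM in DMSO (SD, n = 3 each). The log2 difference, iMDK minus DMSO on log2(value + 0.5), was 0.06 with a 95% interval of -0.33 to 0.46 (limma adjusted p = 0.9101 over 44342 tested gene sums). Its spread within groups was small, since 91.7% of tested gene sums had a larger one. Of its 5 transcripts, c1088780_g4_i2 held 99.2 to 100% of the sum in every library, c1088780_g4_i1 was listed at 0 in all 6, and the other 3 never exceeded 1.094 TPM.

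Integrin a6, the laminin-binding alpha chain, was higher in every iMDK library, although the difference did not pass the test. Its sum was 20.3, 22.3 and 22.9 TPM in iMDK 1 to 3 and 9.79, 18.7 and 16.4 TPM in DMSO 1 to 3. The groups did not overlap, and DMSO 1 stood lowest. The means were 21.8 ± 1.37 TPM in iMDK and 14.98 ± 4.65 TPM in DMSO (SD, n = 3 each), a ratio of 1.46. The log2 difference was 0.58 ± 0.26 (SE), with a 95% interval of -0.03 to 1.19 (limma adjusted p = 0.502), and it was 0.31 without DMSO 1. Without overlap, 3 against 3 gives the smallest exact 2-sided permutation p that such a design allows, 0.1.

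**Figure D1:**
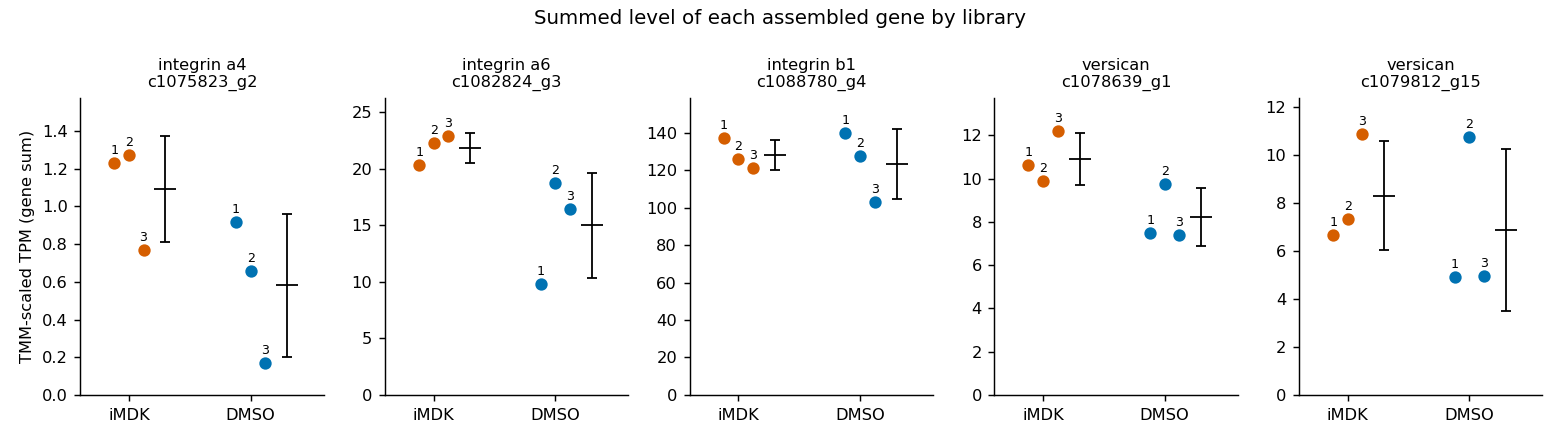
Summed TMM-scaled TPM of each assembled gene (y axis, from 0, a scale for each panel) in the iMDK and DMSO libraries. Points are libraries numbered by replicate and the bar beside them is the mean ± SD; the a6 points in iMDK (20.3 to 22.9) all lie above those in DMSO (9.79 to 18.7), whereas the b1 points overlap.

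Which a6 transcript carried the sum differed between the treatments. The transcript c1082824_g3_i4 was listed at 0 in iMDK 1, 2 and 3 and at 4.79, 6.86 and 10.1 TPM in DMSO 1, 2 and 3. It held 48.9, 36.6 and 61.6% of the a6 sum in DMSO 1 to 3 and was the leading a6 transcript in each DMSO library. In the iMDK libraries the lead went to c1082824_g3_i5 in iMDK 1 (66.8% of the sum), c1082824_g3_i2 in iMDK 2 (72.9%) and c1082824_g3_i5 in iMDK 3 (41.5%). The 3 iMDK libraries shared the transcript listed at 0 but not the one in the lead.

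The transcript c1082824_g3_i4 was the single member that limma called, at an adjusted p under 0.05 and a fold above 2, with an adjusted p of 0.0173 over 51718 transcripts. It was 1 of the 7 member transcripts tested, where limma called 0.541% of all tested transcripts and 0.23% as lower in iMDK. It passed the filter on low values, at least 1 TPM in 3 of 6 libraries, only through DMSO, where it was high. No fold is given against a group listed at 0, and the fitted log2 difference, which the pseudocount sets, ran between -6.13 and -2.99 over the alternatives. The call was lost each time 1 of the 6 libraries was left out, with limma adjusted p between 0.0622 (without iMDK 2) and 0.0982 (without DMSO 2). Leaving out iMDK 1 gave 0.0792, iMDK 3 gave 0.0886, DMSO 1 gave 0.0674 and DMSO 3 gave 0.0947 as the limma adjusted p. Over all alternatives it ranged between 0.00203 and 0.135.

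A value of 0 from kallisto can be a failed estimate, because it divides reads among near-identical transcripts of a gene. In all, 582 tested transcripts (1.13%) were listed at 0 in all iMDK libraries and at 1 TPM or more in all DMSO libraries, and 557 (1.08%) the other way round. The 582 lay in 576 assembled genes, 228 of which had another transcript above 0. Of these 228, 17, with a6 among them, had a sum that was higher in every iMDK library. The rest of the 576 could not, since their sum was only the transcript listed at 0. Over all tested gene sums 8.38% were higher in every iMDK library. The part of this division of reads in the a6 values was not tested.

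**Figure D2:**
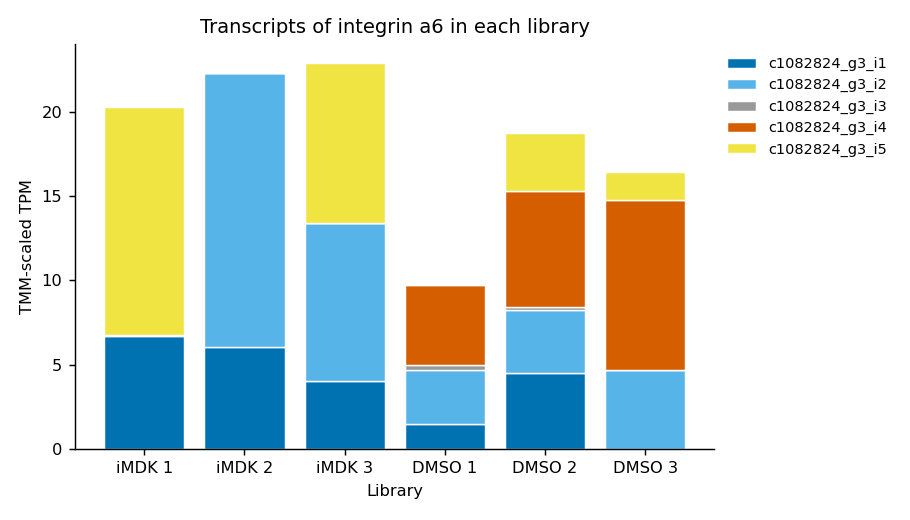
Stacked TMM-scaled TPM of the 5 integrin a6 transcripts (y axis, from 0) in each library, iMDK on the left and DMSO on the right, with colors naming the transcripts. The orange c1082824_g3_i4 is listed at 0 in iMDK and is the tallest segment in each DMSO bar (4.79 to 10.1), while the total is 20.3 to 22.9 in iMDK and 9.79 to 18.7 in DMSO.

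The other a6 transcripts varied widely between libraries of a treatment. For c1082824_g3_i1, matched to chicken integrin a6, the values were 6.67, 6.05 and 4.03 TPM in iMDK 1 to 3 and 1.46, 4.47 and 0 TPM in DMSO 1 to 3. Its ranges overlapped through DMSO 2 and iMDK 3, and the log2 difference of 1.82 had a 95% interval of -0.12 to 3.75 (limma adjusted p = 0.479).

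For c1082824_g3_i2 they were 0.055, 16.2 and 9.34 TPM in iMDK and 3.20, 3.78 and 4.66 TPM in DMSO. For c1082824_g3_i5 they were 13.5, 0.001 and 9.51 TPM in iMDK and 0.045, 3.46 and 1.64 TPM in DMSO. These 2 transcripts were complementary in iMDK 1 and 2, each near 0 where the other was highest, and their ranges overlapped between treatments. Their log2 differences were 0.05 with a 95% interval of -2.85 to 2.96 for c1082824_g3_i2 and 1.31 with -2.01 to 4.63 for c1082824_g3_i5 (limma adjusted p = 0.988 and 0.819). The rare c1082824_g3_i3 was listed at 0 in the 3 iMDK libraries and at 0.305, 0.177 and 0 TPM in DMSO. The share of c1082824_g3_i2, the a6 transcript with the highest mean, averaged 37.99 ± 36.4% in iMDK and 27.1 ± 6.36% in DMSO (exact permutation p = 0.7, adjusted p = 1 over 4 genes).

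Without c1082824_g3_i4, the remaining a6 transcripts summed to 20.3, 22.3 and 22.9 TPM in iMDK and 5.002, 11.9 and 6.30 TPM in DMSO. This sum was made after the values were seen and has no test. Since c1082824_g3_i4 was listed at 0 in every iMDK library, leaving it out could lower only the DMSO sums. The assembly placed 6 other assembled genes, with no name here, in the same component as a6, a set of contigs joined by shared sequence. Summed over that component the values were 33.9, 40.7 and 44.3 TPM in iMDK and 36.4, 36.1 and 31.3 TPM in DMSO, and the groups overlapped. The log2 difference of 0.19 (limma adjusted p = 0.834) was smaller than that of the a6 sum, 0.58. Of the other genes of the component, c1082824_g5 had 7.01, 7.52 and 7.73 TPM in iMDK and 9.20, 9.17 and 7.15 TPM in DMSO.

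Integrin a4, the fibronectin and VCAM1 receptor chain, was the rarest member. Its sum was 1.23, 1.28 and 0.77 TPM in iMDK 1 to 3 and 0.916, 0.656 and 0.171 TPM in DMSO 1 to 3. The ranges overlapped, with DMSO 1 above iMDK 3, and DMSO 3 stood lowest. It reached 1 TPM in only iMDK 1 and 2 and so missed the filter, and its sum was compared by an exact permutation test over the libraries. The means were 1.09 ± 0.280 TPM in iMDK and 0.581 ± 0.378 TPM in DMSO (SD, n = 3 each), a log2 difference of 0.61 (exact 2-sided p = 0.2), which was 0.30 without DMSO 3. With no filter the limma interval was -0.58 to 1.80 (adjusted p = 0.516). Nearly all of it came from c1075823_g2_i1, which held 100% of the sum in 5 libraries and 83.0% in DMSO 3. The transcript c1075823_g2_i2 was listed at 0 in all 6 libraries, and c1075823_g2_i3 was above 0 in DMSO 3 alone, at 0.029 TPM.

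Versican was higher in every iMDK library by 1 of its assembled genes and overlapped by the other. The single transcript of c1078639_g1 had 10.6, 9.87 and 12.2 TPM in iMDK 1 to 3 and 7.49, 9.77 and 7.38 TPM in DMSO 1 to 3. The groups did not overlap, but iMDK 2 and DMSO 2 lay close together. The means were 10.9 ± 1.19 TPM in iMDK and 8.21 ± 1.35 TPM in DMSO (SD, n = 3 each), with a log2 difference of 0.39 and a 95% interval of -0.08 to 0.87 (limma adjusted p = 0.564).

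The other assembled gene, c1079812_g15, had 6.65, 7.36 and 10.9 TPM in iMDK 1 to 3 and 4.93, 10.8 and 4.94 TPM in DMSO 1 to 3. DMSO 2 was close to the highest iMDK library, and the other DMSO libraries were below all iMDK libraries. The log2 difference was 0.31 with a 95% interval of -0.54 to 1.17 (limma adjusted p = 0.835), and it rested on single libraries. It was 0.66 without DMSO 2, but 0.11 without iMDK 3, 0.14 without DMSO 1 and 0.14 without DMSO 3. Its transcript c1079812_g15_i1, at 6.07, 6.38 and 9.87 TPM in iMDK and 4.76, 9.24 and 4.52 TPM in DMSO, held 85.8 to 96.5% of the sum. The remaining c1079812_g15_i2 was between 0.576 and 1.023 TPM in iMDK and between 0.171 and 1.525 TPM in DMSO. Among DMSO libraries DMSO 2 was highest for both transcripts, and also for the collagens. CO1A2, a collagen I chain, had 738, 685 and 693 TPM in iMDK and 286, 903 and 505 TPM in DMSO. The part of connective tissue content in the versican values was not tested.

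In all, 0 of 4 tested member sums were called by limma, 0 had an unadjusted p under 0.05, and 2 of 4 did not overlap between groups, both higher in iMDK. Over all 44342 tested gene sums limma called 0.0541%, 10.7% had an unadjusted p under 0.05 and 16.6% did not overlap, 8.38% being higher in iMDK. The 4 log2 differences were all above 0, as were 49.3% of all.

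**Figure D3:**
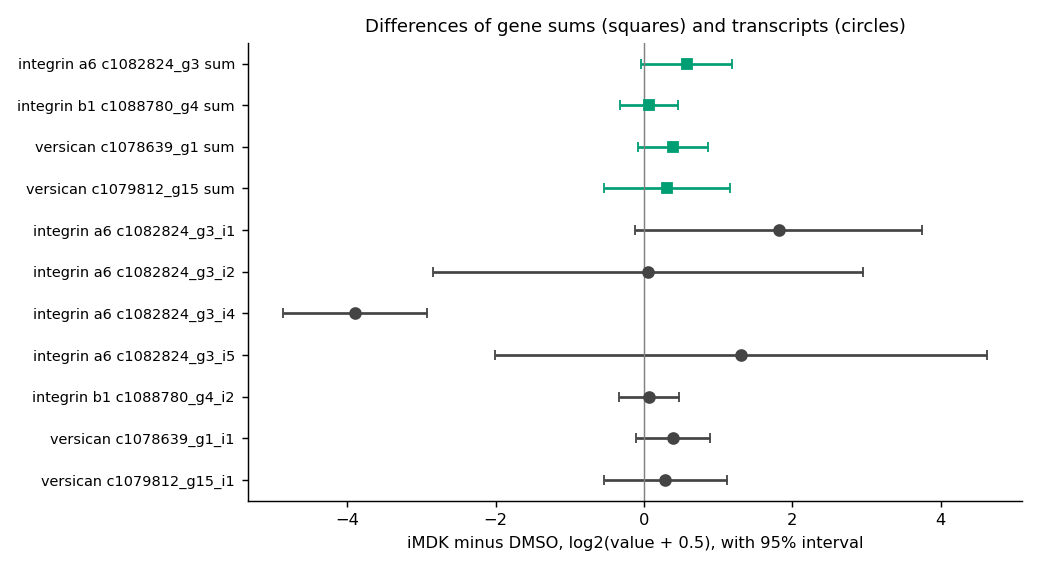
Log2 difference, iMDK minus DMSO, with 95% interval (x axis, log2(value + 0.5)) for the 4 tested gene sums (green squares) and the 7 tested transcripts (circles). The interval of c1082824_g3_i4 alone lies away from 0 (-4.87 to -2.92). Its place depends on the pseudocount, since the iMDK values of that transcript are all listed at 0. The intervals of c1082824_g3_i2 (-2.85 to 2.96) and c1082824_g3_i5 (-2.01 to 4.63) are widest.

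By mean TPM the order was b1, a6, versican c1078639_g1, versican c1079812_g15 and a4. The mean over all 6 libraries was 125.8 TPM for b1, 18.4 for a6, 9.56 for c1078639_g1, 7.59 for c1079812_g15 and 0.837 for a4. The b1 range lay above that of a6, and the range of c1079812_g15 above that of a4. Integrin a6 exceeded c1078639_g1 in 6 of 6 libraries though their ranges overlapped (9.79 to 22.9 and 7.38 to 12.2 TPM), and the versican order held in 5 of 6, so these neighbours lie within reach of their spread. Among tested gene sums 97.7% were lower than b1, 87.1% than a6 and 7.64% than a4.

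Ratios between members overlapped between the groups in all 3 cases. The a6 to b1 ratio was 0.148, 0.177 and 0.189 in iMDK 1 to 3 and 0.0699, 0.147 and 0.159 in DMSO 1 to 3. It overlapped between groups, and DMSO 1 was lowest (log2 difference 0.53, exact permutation p = 0.2, adjusted p = 0.3 over 3 ratios). The a4 to b1 ratio was 0.00899, 0.0101 and 0.00635 in iMDK and 0.00654, 0.00515 and 0.00166 in DMSO (exact permutation p = 0.2, adjusted p = 0.3). The ratio of the versican pair c1078639_g1 to c1079812_g15 was 1.597, 1.34 and 1.12 in iMDK and 1.52, 0.908 and 1.49 in DMSO (exact permutation p = 0.8, adjusted p = 0.8), lowest in DMSO 2.

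**Figure D4:**
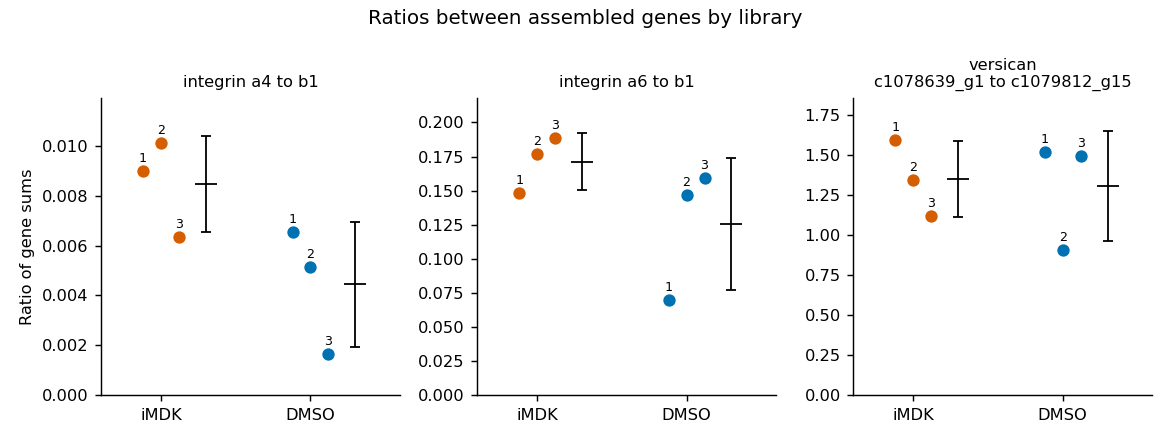
Ratio of gene sums (y axis, no unit, from 0) in the iMDK and DMSO libraries, points numbered by replicate, with mean ± SD beside them. The a6 to b1 ratio averaged 0.171 in iMDK and 0.125 in DMSO and the groups overlapped in all 3 ratios.

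Across the 6 libraries the versican pair moved together (Pearson r = 0.829), as did a4 with b1 (r = 0.848) and a6 with c1078639_g1 (r = 0.799), while a6 and b1 did not (r = -0.25). These are descriptions over 6 libraries that share the treatment. Among 1255 named gene sums, the pattern most like a6 was that of c1090567_g1, with the blastx entry HRPX_PLALO (r = 0.987). Next was PLEC (c1091472_g1), plectin, which links a6b4 to keratin (r = 0.984). PLEC had 24.1, 23.1 and 24.6 TPM in iMDK and 9.80, 18.3 and 16.8 TPM in DMSO. Those most like c1078639_g1 were ANO6, a calcium-activated scramblase and channel, and TLR13, a toll-like receptor (r = 0.985 and 0.962). For c1079812_g15 they were STAT6, a transcription factor of interleukin signaling, and FAT1, an atypical cadherin (r = 0.969 and 0.966). For b1 they were JCAD, a junctional protein, and BAZ2A, a chromatin remodeler subunit (r = 0.955 and 0.940), and for a4 IC1, an inhibitor of complement, and NHSL1 (r = 0.989 and 0.970). These are the highest of 1255 values over only 6 libraries. An r above 0.9 was reached by 28 of the 1255 (2.23%) for a6 and 15 for c1078639_g1. It was reached by 19 for c1079812_g15, 9 for b1 and 7 for a4.

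Among other genes of the pathway, limma called 0 in each of 5 lists. At an unadjusted p under 0.05, which 10.7% of all gene sums reached, limma had 2 of 9 intracellular partners, 1 of 3 other integrins, 0 of 16 matrix genes, 2 of 7 genes of hyaluronan and chondroitin sulfate and 3 of 9 sums of other midkine receptors. Among intracellular partners of integrins, 9 of 10 assembled genes were tested (PLEC and FLNA with 2 each), all 9 were above 0 and the median log2 difference was 0.27, where 49.3% of all sums lay above 0 and the median of all was -0.01. PLEC c1091472_g1 had a log2 difference of 0.71 (limma adjusted p = 0.377), ACTN4, an actin crosslinker, 0.39 (0.444) and BCAR1, a focal adhesion scaffold, 0.77 (0.566). The other PLEC assembled gene, c1090666_g1, overlapped between groups, with a log2 difference of 0.27 (limma adjusted p = 0.827). Of 3 other integrin subunits, ITAE, the aE chain of tissue lymphocytes, had 4.80, 2.02 and 5.68 TPM in iMDK and 11.3, 5.73 and 14.2 TPM in DMSO. It was lower in every iMDK library, with a log2 difference of -1.24 (limma adjusted p = 0.397). ITB7, its beta partner, was at 0.24 and ITAV, a vitronectin receptor chain, at 0.13 on that scale. ITB7 went the other way from ITAE, higher in every iMDK library but near the filter of 1 TPM. It had 1.06, 1.04 and 1.34 TPM in iMDK and 0.797, 0.924 and 0.946 TPM in DMSO. Of all tested gene sums 16.6% did not overlap.

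Matrix proteins bound by integrins were measured by 16 assembled genes, all tested, with 14 above 0 and a median of 0.39. Fibronectin and FBN2 had 3 of these each, so the 16 are not separate proteins. COMP, a cartilage matrix protein, had a log2 difference of -0.65, LAMB2, a laminin beta chain, -0.56 and FBN2, a fibrillin, 0.68 (limma adjusted p = 0.678, 0.704 and 0.724). LAMB2 alone in the list did not overlap, at 1.07, 1.25 and 1.20 TPM in iMDK and 2.25, 2.57 and 1.28 TPM in DMSO. Of 7 genes of hyaluronan and chondroitin sulfate, the partners of versican, 3 were above 0 and 4 below, and the median was -0.07. Higher in every iMDK library, as were 8.38% of all tested gene sums, were HYAL1, a hyaluronidase, CHSS3, a chondroitin synthase, and CHSTB, a chondroitin sulfotransferase. Their log2 differences were 0.63, 0.74 and 0.61 (limma adjusted p = 0.413, 0.440 and 0.718). CHSTB lay near the filter of 1 TPM, and its groups were barely apart, at 1.179 TPM in iMDK 1 and 1.163 TPM in DMSO 1. Among 9 sums of other midkine receptors, sdc4, a heparan sulfate proteoglycan, had 19.7, 10.2 and 9.97 TPM in iMDK and 4.30, 3.41 and 5.35 TPM in DMSO (log2 difference 1.46, limma adjusted p = 0.188). sdc1 was at 0.46 and nucleolin at -0.47 (limma adjusted p = 0.371 and 0.373).

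**Figure D5:**
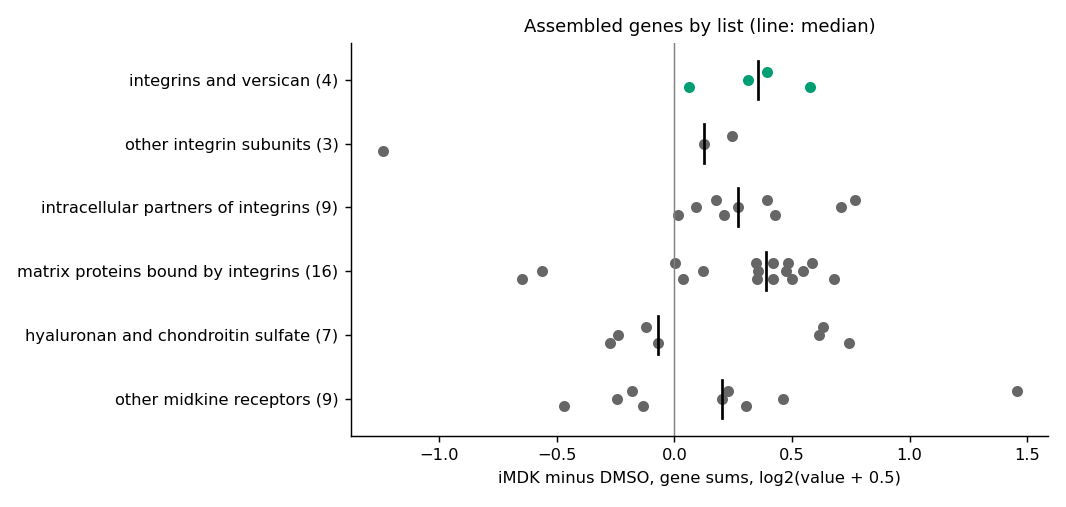
Log2 difference of gene sums, iMDK minus DMSO (x axis), by list (rows, tested genes in parentheses), points for assembled genes and a line for the list's median. The integrins and versican lie from 0.06 to 0.58, all 9 partners above 0, and the matrix proteins between -0.65 and 0.68.

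Markers of cell types were read by list, where 8.38% of all gene sums were higher in every iMDK library. Red blood cell markers summed to 36.4 to 74.8 TPM in iMDK and 6.90 to 8.49 TPM in DMSO, with 3 of 4 markers higher in every iMDK library and none at 0 in all libraries. Of these, HBB1 and HBB2, hemoglobin beta chains, were called (limma adjusted p = 0.0389 and 0.0492), where limma called 0.0541% of all tested gene sums. With the replicate block, and without iMDK 1, limma called 0 gene sums, so both calls were lost there. Without iMDK 2, DMSO 1, DMSO 2 or DMSO 3 it called 1 gene sum each time, so at most 1 of these calls held. HBA, an alpha chain, had a log2 difference of 1.98 (limma adjusted p = 0.180). The remaining marker, HBA2, overlapped between groups, with a log2 difference of -0.12. It had 5.295, 2.722 and 4.555 TPM in iMDK and 4.673, 3.737 and 4.985 TPM in DMSO. Epidermal markers, 11 in all with 8 above 0, overlapped in sum, and TGM1, the cornifying transglutaminase, had 76.8, 50.9 and 62.2 TPM in iMDK and 8.32, 6.70 and 19.1 TPM in DMSO (limma adjusted p = 0.132). K1C17, a keratin of activated epidermis, also did not overlap, with 1281, 1228 and 1413 TPM in iMDK and 947, 272 and 962 TPM in DMSO (limma adjusted p = 0.531), whereas PKP1, a desmosome protein, overlapped (log2 difference 0.50).

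Leukocyte markers, 5 of 6 tested above 0, summed to 505 to 2284 TPM in iMDK and 344 to 1986 TPM in DMSO, mostly from MPEG1, a macrophage protein, at 2207, 450 and 1488 TPM in iMDK and 362, 297 and 1909 TPM in DMSO. FYB, a leukocyte adaptor, did not overlap, with 4.31, 4.44 and 6.71 TPM in iMDK and 2.31, 2.18 and 3.89 TPM in DMSO (limma adjusted p = 0.440), and LEUK, leukosialin, overlapped (log2 difference 0.55). Endothelial markers summed to 20.99 to 33.01 TPM in iMDK and 14.4 to 21.04 TPM in DMSO, with log2 differences of 0.60 for PLVAP, a diaphragm protein of vessels, and 0.07 for ROBO4, a guidance receptor (limma adjusted p = 0.455 and 0.960). The single muscle marker, the myosin MYH3, had 2.23, 5.04 and 2.97 TPM in iMDK and 1.05, 2.59 and 1.51 TPM in DMSO, and its groups overlapped. Of the connective tissue markers, CO1A1, the other collagen I chain, and LYOX, a collagen crosslinking enzyme, each had a log2 difference of 0.50 and overlapped. The part of these cell types in the a6, a4 and versican values was not tested.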

How the data were processed

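By the labels, RNA selected with oligo-dT beads was made into Nextera XT libraries. Reads were then trimmed (Trimmomatic) and quantified (kallisto) by the authors against an axolotl transcriptome assembly, and DESeq2 served for their own tests. The sources used here give no versions. Each deposited signal is a TPM value for 1 transcript of the assembly, which the authors scaled by TMM per library. It is not counts, so a count test was not used.

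Groups came from the labels. With limma 3.58.1 (trend, 2-sided) in R 4.3.3, log2(value + 0.5) was compared between them, over transcripts, and over gene sums, of at least 1 in at least 3 of 6 libraries, with Benjamini-Hochberg adjustment over all of them. Fold changes on that scale understate those of low transcripts. Integrin a4 missed the filter, so an exact permutation test replaced limma. Shares and ratios had exact permutation tests, for which 0.1 is the smallest p. Tables were read with data.table (version 1.17.8), and plots used pandas 2.3.3 and matplotlib 3.10.9 (Python 3.11.15). The procedure was tested on simulated data.

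The members and lists were chosen with earlier results of these data known. Named were each tested member, the 3 genes per list with the smallest p, and the 2 named genes most like each member. The collagen values, PLEC c1090666_g1, HBA2, c1082824_g5 and the sums and genes in the last section were chosen after values were seen. Names are blastx entries that the study pairs with 1675 transcripts of other experiments, so most transcripts have none. No identifier matched RefSeq, and no sequence was used here. Alternatives were other pseudocounts (0.1, 1), no filter or one of 5, other scalings, limma settings, a replicate block, each library left out and, chosen after seeing the data, component sums.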

Additional observations from a re-analysis of the deposited data

How the results depend on the processing

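All 16 alternatives for the member sums kept 0 of them called. The count of called member transcripts was 1, and 0 with the replicate block and whenever 1 library was left out. It was also 0 with a filter of at least 5, which c1082824_g3_i4 did not pass, so that it was not tested there. With the TMM scaling undone integrin b1 was -0.026 for the sum and -0.025 for c1088780_g4_i2. Integrin a6 c1082824_g3_i2 was -0.45 with a pseudocount of 0.1. The causes of these 3 reversals were not tested.

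With the replicate number as a block, c1082824_g3_i4 had a limma adjusted p of 0.135, and limma called 30 transcripts (280 without the block) and 0 gene sums (24 without it). Deviations of same-numbered libraries correlated weakly, at 0.0622, 0.0391 and 0.0103. Not every library correlated best with its own number, as iMDK 3 did so with DMSO 2 (0.0507). Whether the numbers pair the limbs cannot be decided from these values.

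Leaving out each library gave log2 differences of 0.30 to 0.84 for a4, 0.31 to 0.76 for a6, -0.061 to 0.16 for b1, 0.31 to 0.52 for c1078639_g1 and 0.11 to 0.66 for c1079812_g15. For transcripts it gave 0.94 to 2.59 for c1082824_g3_i1, -0.89 to 1.57 for c1082824_g3_i2, -4.14 to -3.64 for c1082824_g3_i4, 0.43 to 2.83 for c1082824_g3_i5, -0.058 to 0.16 for c1088780_g4_i2 and 0.08 to 0.60 for c1079812_g15_i1. Differences in share ran from -6.53 to 29.8 points for c1082824_g3_i2, -0.090 to 0.31 for c1088780_g4_i2 and -4.42 to 0.94 for c1079812_g15_i1, and log2 ratios from 0.15 to 0.75 (a6 to b1), 0.52 to 1.51 (a4 to b1) and -0.17 to 0.20 (versican pair). Over all transcripts, limma called 280, against 1303 without the trend, and leaving out a library gave 78 to 138. Over gene sums it called 24, against 820 without the trend, 438 with no filter, 9 with a pseudocount of 0.1, 38 with a filter of 5, 14 with TMM undone and 0 to 3 without a library. Depth is unknown from TPM, so the counting error of values under 1, such as those of a4 in DMSO, cannot be given here.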

Other observations

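The neighbours of the versican transcripts in the assembly were looked at after the values were seen. In the component of c1079812_g15, the assembled gene c1079812_g12, which has no name here, had 5.08, 5.99 and 9.72 TPM in iMDK and 3.47, 12.7 and 3.49 TPM in DMSO. It was highest in DMSO 2, whereas c1079812_g15 was highest in iMDK 3 (10.892 TPM), with DMSO 2 close to it (10.76 TPM). The groups overlapped for both. The pair, which shares a component, correlated at r = 0.983 over the 6 libraries, which share the treatment. Summed over the component of c1079812_g15, the values were 14.9, 16.7 and 22.1 TPM in iMDK and 8.74, 28.2 and 9.93 TPM in DMSO. For the component of c1078639_g1 they were 16.99, 15.6 and 19.1 TPM in iMDK and 14.045, 17.6 and 13.1 TPM in DMSO, and the groups overlapped there, unlike for c1078639_g1 alone.

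Among 112 assembled genes with a called transcript lower in iMDK, 9 (8.04%), with integrin a6 among them, had a sum higher in every iMDK library. Of all tested gene sums 8.38% were higher in every iMDK library. The 112 were picked by a transcript lower in iMDK, so the 2 percentages are not of like sets. Of the 112 sums, 27 (24.1%) had a log2 difference above 0, as did 49.3% of all tested gene sums. Another transcript above 0 was present in 98 of the 112, and without one the sum could not be higher in iMDK.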
